A study of Mus musculus with 6 samples.

Results

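The constitutive proteasome subunits were taken as the protein-coding genes whose symbols run from Psma, Psmb, Psmc or Psmd to a number, leaving out the interferon-inducible Psmb8, Psmb9 and Psmb10. The rule found 36 of the 53465 genes measured: 16 genes of the core particle (8 Psma and 8 Psmb) and 20 of the regulatory particle (6 Psmc and 14 Psmd). The RNA came from bone marrow of wild-type mice that had all received 5.0 Gy of total body irradiation and then either saline (3 libraries) or carnosine (3 libraries), a dipeptide of beta-alanine and histidine. The cells, long-term haematopoietic stem cells (LT-HSCs) by label, had been sorted by a gate for absent lineage markers, Flk2 and CD34 and present Sca-1 and c-Kit. No unirradiated mice were analysed here, so each comparison sets carnosine after irradiation against saline after irradiation. The labels give no age, sex, dose of carnosine or time of sampling, and do not say whether libraries came from separate mice. The p-values therefore weigh group differences against the variation between these libraries only. Whether they extend to other mice is not known.

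The proteasome degrades proteins tagged with ubiquitin. Its core is a barrel of stacked rings in which alpha subunits (Psma genes) form the gate and beta subunits (Psmb genes) carry the proteolytic sites, and its regulatory cap holds a ring of ATPases (Psmc genes) that unfold substrates and non-ATPase subunits (Psmd genes) that bind and strip ubiquitin. In haematopoietic stem cells, which are known for a low rate of protein synthesis, the proteasome is one of the routes that keep protein turnover in balance.

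Total counts per library were 12602067 to 16866534. Markers of the sorted cells were present, with Kit at 319 to 382 CPM (counts scaled to a common library size by TMM), Ly6a at 22.9 to 39.6 CPM and Procr at 4.56 to 5.88 CPM over the 6 libraries. RNA of Flt3 (Flk2) and Cd34, whose products the gate excludes, was also abundant. Flt3 was at 177.1 to 219.5 CPM and was called lower in carnosine (log2 fold change -0.22). Cd34 was at 297.6 to 346.1 CPM, lower in every carnosine library but not called. Of the LT-HSC marker list (10 genes, 9 tested), 1 gene, Kit, was called higher in carnosine and 5 were called lower. The summed level of this list overlapped between the groups (489.6 to 502.2 CPM in saline and 479 to 495.1 CPM in carnosine). Several marker lists of other cells also differed with treatment. Of all genes tested, 39.4% were called, 19.6% higher and 19.8% lower. All 8 myeloid progenitor genes were called higher in carnosine (summed level 3744 to 3779 CPM in saline and 7809 to 8053 CPM in carnosine), as were 7 of 8 genes of dividing cells (1978 to 1990 and 2339 to 2359 CPM) and 6 of 10 plasma cell genes (611 to 693 and 737 to 1043 CPM). No gene of these 3 lists was at 0. All 6 tested megakaryocyte genes of a list of 8 were called lower (353 to 380.0 and 145 to 154 CPM), and Gp6 of that list was at 0. Of the erythroid genes 6 of 10 were called higher and 2 lower (327 to 339 and 427 to 439 CPM), and of the T cell genes 4 of 6 tested were higher and 1 lower (20.1 to 20.4 and 26.5 to 28.7 CPM). Endothelial and stromal genes were lower in 3 of 5 tested (49.6 to 53.9 and 24.6 to 26.4 CPM). Late neutrophil genes were higher in 3 and lower in 3 of 9 (53.8 to 58.1 and 57.2 to 59.1 CPM), with overlapping sums. B cell genes were higher in 2 and lower in 1 of 10 (37.7 to 40.8 and 39.8 to 43.9 CPM). That is 30.0% called, below the share of all genes, and these sums overlapped as well. The part of these shifts in the differences described here was not tested. In bulk RNA, fewer cells of a type and less RNA per cell cannot be told apart.

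Proteasome subunit RNA differed little between the groups. Of 36 members, 35 passed the filter on low counts, and 5 of these (14.3%) differed at an adjusted p under 0.05 in edgeR's quasi-likelihood test with Benjamini-Hochberg adjustment over all 15533 genes tested, against 39.4% of all genes. Psmc2 and Psmd7 rose in carnosine, and Psmd8, Psmb6 and Psmb1 fell. The log2 fold changes of the 35 tested members ran from -0.30 to 0.20, with 17 above and 18 below 0. Their median size was 0.07, against 0.23 for all genes tested and 0.19 for the 11536 genes that reached 5 CPM in 3 libraries. A size under 0.1 was found in 74.3% of the members, in 25.1% of all genes tested and in 29.2% of those reaching 5 CPM. The 95% confidence interval lay within 0.5 of 0 on the log2 scale for 35 of 35 members and for 50.5% of all genes. Members also had smaller standard errors, with a median of 0.04 against 0.09 over all genes.

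**Figure D1:**
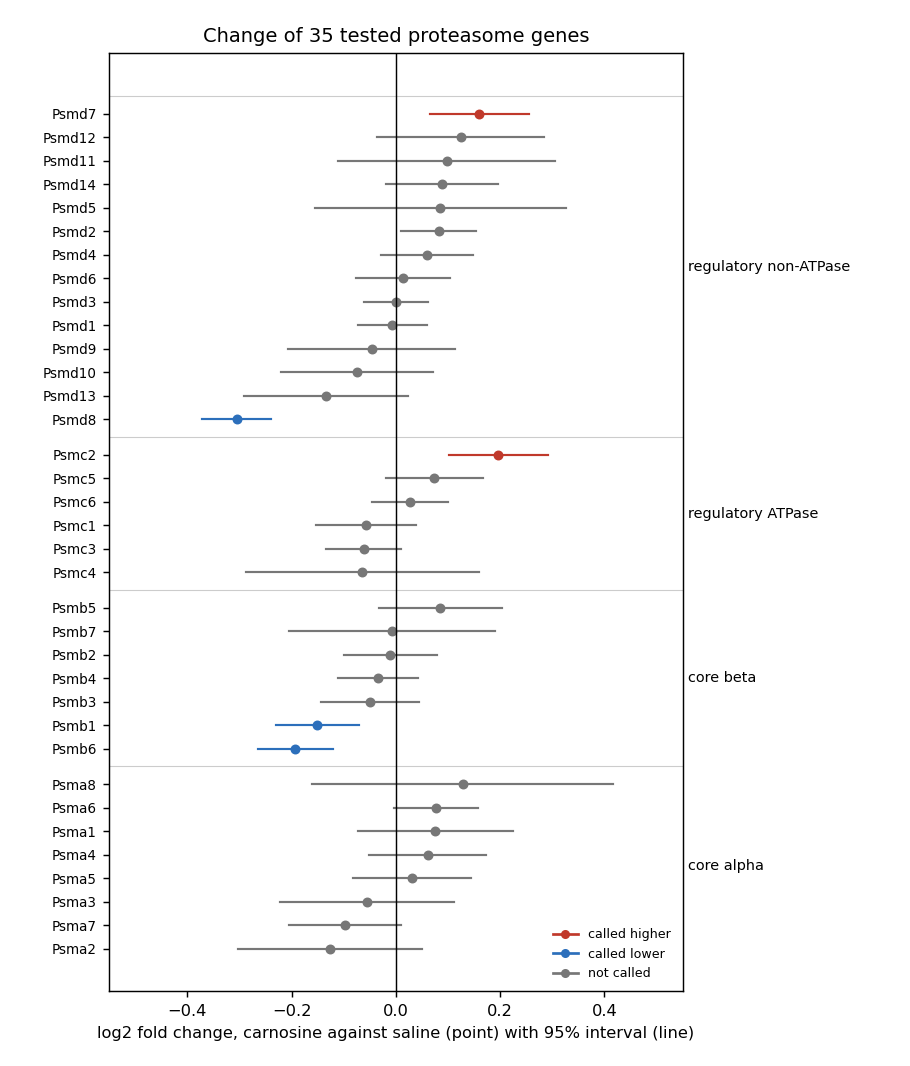
Log2 fold change of carnosine over saline (horizontal axis) for the 35 tested proteasome subunits, with 95% confidence intervals and subunits grouped by their place in the particle. All points lie between -0.30 and 0.20, and the 5 called subunits are spread over both particles and both directions.

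Members of the core particle were called lower in 2 cases and higher in none of 15 tested (13.3% called, median log2 fold change -0.01). Members of the regulatory particle were called higher in 2 cases and lower in 1 of 20 (15.0%, median 0.02). Both medians lie beside -0.0001 for all genes tested, of which 19.6% were called higher and 19.8% lower. The alpha subunits had 0 of 8 called and a median of 0.05, with 0 of 8 at an unadjusted p under 0.05. DESeq2's Wald test called none of these 8, and the fits on FPKM called Psma6. The 7 tested beta subunits had 2 called lower and a median of -0.03. The 6 ATPases had 1 called higher and a median of -0.02, and the 14 non-ATPase genes had 1 higher, 1 lower and a median of 0.04. Adding up all 36 genes gave 4499 ± 22.4 CPM in saline and 4489 ± 24.4 CPM in carnosine (mean ± SD, n = 3 each), a difference within the spread of the libraries on the TMM scale. With scaling by library totals the sum was higher in every carnosine library, at 1340.0 ± 7.35 and 1386 ± 1.799 FPKM (3.42% higher), or 0.440% and 0.457% of all counts (3.81% higher), so whether the sum differed depended on the scaling. That sum includes long and short genes alike and describes RNA counts, not numbers of particles.

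**Figure D2:**
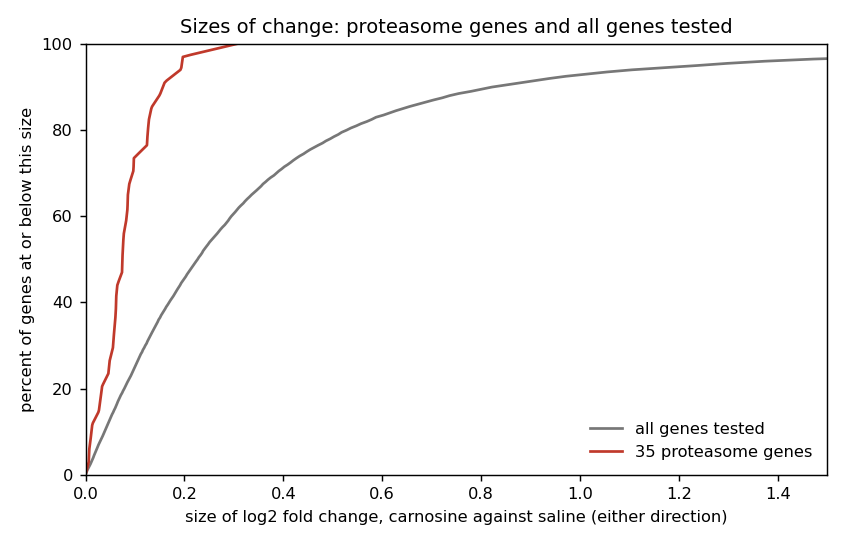
Percent of genes (vertical axis) whose log2 fold change has at most a given size in either direction (horizontal axis), for the 35 tested proteasome subunits and for all genes tested, up to a size of 1.5. The curve of the subunits lies to the left: the subunits have a median of 0.07 and all genes tested a median of 0.23.

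Among the core alpha subunits, which form the outer rings and the gate, no gene was called. Psma7 (chr2:180036373-180042433) measured 177, 178 and 169 CPM in saline and 174, 156 and 161 CPM in carnosine, so that carnosine replicate 1 lay among the saline libraries. Its log2 fold change was -0.10 ± 0.05 (SE, adjusted p = 0.137), and without carnosine replicate 1 it was -0.14 (adjusted p = 0.0265). Psma2 was at 159, 164 and 160.1 CPM in saline and at 159.9, 129 and 154 CPM in carnosine, where carnosine replicate 2 stood below the other 5 libraries. Psma8, a variant of Psma7 known from the testis, had the lowest level of the alpha subunits. Its levels of 6.0, 6.17 and 7.15 CPM in saline and 7.12, 7.64 and 6.26 CPM in carnosine overlapped, and its log2 fold change of 0.13 ± 0.12 (adjusted p = 0.449) had the widest reach upward of all members, to 0.42. The 5 other alpha subunits had log2 fold changes from -0.06 for Psma3 to 0.08 for Psma6 and adjusted p-values from 0.116 to 0.654.

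Among the core beta subunits, Psmb6, which carries the caspase-like site, fell in carnosine. It lies at chr11:70525367-70527858 (GRCm38, ENSMUSG00000018286). Levels were 135, 134 and 134 CPM in saline and 116, 121 and 115 CPM in carnosine. All 3 carnosine libraries lay below all 3 saline libraries, as did those of 26.1% of all genes tested. The means of 134 ± 0.558 and 117 ± 2.99 CPM (SD, n = 3 each) gave a log2 fold change of -0.19 ± 0.03 (SE, adjusted p = 0.00241).

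Psmb1 (ENSMUSG00000014769, chr17:15475721-15498276), a beta subunit without a proteolytic site, also fell. It was at 179, 172 and 179.9 CPM in saline and at 159, 165 and 155 CPM in carnosine. The groups did not overlap, and the log2 fold change was -0.15 ± 0.03 (adjusted p = 0.0110), but the call was lost with DESeq2's Wald test (adjusted p = 0.0525) and in both fits on FPKM (0.0553 and 0.0555).

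The other 2 catalytic subunits were not called. Psmb5, which carries the chymotrypsin-like site, measured 63.2, 63.6 and 58.5 CPM in saline and 64.0, 65.2 and 67.5 CPM in carnosine. Every carnosine library was above every saline library, though the nearest of both groups nearly met, and the adjusted p was 0.222. Psmb7, which carries the trypsin-like site, was at 151, 123 and 155 CPM in saline and 144, 145 and 137 CPM in carnosine. Saline replicate 2 stood below the other 5 libraries, and the log2 fold change was -0.01 ± 0.08, or -0.11 (adjusted p = 0.0821) without that library. Psmb2, Psmb3 and Psmb4 had log2 fold changes of -0.01, -0.05 and -0.03. Psmb11, the beta subunit of thymic epithelium, had 0, 1 and 2 counts in saline and 1, 2 and 2 in carnosine. It was not tested, and counts this low allow no comparison.

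The regulatory ATPases form the ring that threads substrates into the core. Psmc2 (ENSMUSG00000028932, chr5:21785283-21803787) was the one ATPase that rose. It measured 112, 118 and 116 CPM in saline and 127, 138 and 131 CPM in carnosine. All 3 carnosine libraries exceeded all 3 saline libraries, and the log2 fold change was 0.20 ± 0.04 (adjusted p = 0.00779). The remaining ATPases did not follow it. Psmc5 (chr11:106256154-106263120), the ATPase with the highest FPKM, was at 132, 129.8 and 139.6 CPM in saline and 138, 138 and 146 CPM in carnosine, with overlapping groups and a log2 fold change of 0.07 ± 0.04 (adjusted p = 0.185). Psmc3 was lower in every carnosine library (192, 184.9 and 193 CPM in saline, 177, 184.6 and 184 CPM in carnosine). The nearest libraries of both groups nearly met, and the log2 fold change of Psmc3 was -0.06 ± 0.03 (adjusted p = 0.156). Psmc1, Psmc4 and Psmc6 had log2 fold changes of -0.06, -0.06 and 0.03.

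Among the non-ATPase subunits, the largest difference of any member was at Psmd8 (ENSMUSG00000030591, chr7:29174188-29180701), a subunit of the lid, the part of the cap that removes ubiquitin. It was at 173, 171 and 169.5 CPM in saline and at 136, 138 and 142 CPM in carnosine. The means fell from 171 ± 1.76 to 138 ± 2.89 CPM (SD over 3 libraries per group), and the log2 fold change was -0.30 ± 0.03 (adjusted p = 0.000187). The spread within each group was a small part of this gap.

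Psmd7 (ENSMUSG00000039067, chr8:107580381-107588464), the lid partner of the deubiquitinase Psmd14, rose. It measured 187, 189 and 172 CPM in saline and 206, 205 and 201.3 CPM in carnosine, and the groups did not overlap. The log2 fold change was 0.16 ± 0.04 (adjusted p = 0.0176). The call was lost without carnosine replicate 1 (adjusted p = 0.0544), without carnosine replicate 2 (0.0527) and with no filter on low counts (0.0510). Psmd14 itself was at 109, 109 and 115 CPM in saline and 117, 112 and 124 CPM in carnosine, overlapping, with a log2 fold change of 0.09 ± 0.05 (adjusted p = 0.169).

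The scaffold subunit Psmd2 measured 264, 255 and 265 CPM in saline and 268, 284 and 277 CPM in carnosine. The groups did not overlap, but the log2 fold change of 0.08 ± 0.03 did not pass (adjusted p = 0.0710). In the fit on log2(FPKM + 1) Psmd2, Psmb5, Psmc5, Psmd14, Psmd4 and Psma6 were called higher (adjusted p = 0.0163, 0.0399, 0.0343, 0.0465, 0.0497 and 0.0177), as they were with a pseudocount of 0.1. Psmd1, the other large scaffold subunit, had a log2 fold change of -0.01 ± 0.03, and Psmd3 of the lid had -0.0001 ± 0.03 (280.2, 283 and 279 CPM in saline, 276, 278 and 289 CPM in carnosine). Psmd13, also of the lid, was the uncalled member with the largest difference. It was at 89.3, 87.4 and 89.8 CPM in saline and 73.6, 80.7 and 88.7 CPM in carnosine. Carnosine replicate 3 overlapped the saline group, the log2 fold change was -0.13 ± 0.07 (adjusted p = 0.159), and without that library it was -0.20 (adjusted p = 0.0296).

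Psmd5, Psmd9 and Psmd10 bear subunit names but act as chaperones that assemble the base of the cap. None of these 3 was called. Psmd5 was at 56.5, 72.1 and 55.7 CPM in saline and 65.5, 67.8 and 62.3 CPM in carnosine. Saline replicate 2 was the highest of the 6 libraries. Its log2 fold change was 0.08 ± 0.10 (adjusted p = 0.552) over all libraries and 0.22 (adjusted p = 0.0302) without saline replicate 2. Psmd9 and Psmd10 had log2 fold changes of -0.05 ± 0.07 and -0.07 ± 0.06. The ubiquitin receptor Psmd4 and the lid subunits Psmd6, Psmd11 and Psmd12 had log2 fold changes of 0.06, 0.01, 0.10 and 0.12 with adjusted p-values of 0.250, 0.806, 0.423 and 0.191.

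**Figure D3:**
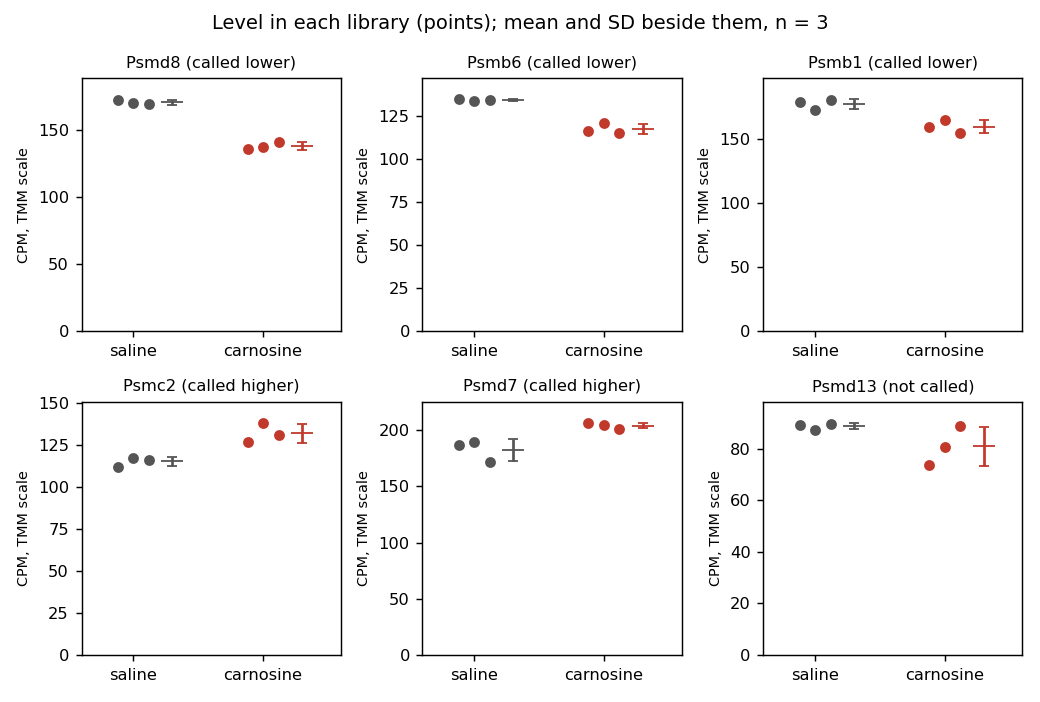
Levels in CPM of the 5 called subunits and of Psmd13, the uncalled one with the largest difference, in each of the 6 libraries (points), with the mean and SD of each group beside them. The 3 carnosine libraries lie wholly below the 3 saline libraries for Psmd8, Psmb6 and Psmb1 and wholly above them for Psmc2 and Psmd7, while the groups overlap for Psmd13.

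The groups did not overlap for 8 of the 35 members, against 52.3% of all genes tested. Psmb5, Psmc2, Psmd2 and Psmd7 were higher in carnosine (4 of 35, against 26.2% of all genes), and Psmb1, Psmb6, Psmc3 and Psmd8 were lower (4 of 35, against 26.1%). Within groups, the coefficient of variation of a member ran from 0.416% to 15.1% in saline (median 3.10%) and from 1.22% to 11.7% in carnosine (median 3.14%), leaving out Psmb11. Psmd5 and Psmb7 in saline and Psmc4, Psma2 and Psmd11 in carnosine had the widest spreads.

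The start regions of the members were compared by sequence with those of all genes. The 250 bases before the RefSeq gene start (GRCm38.p6), 5' to 3' on the gene's strand, are shown for 4 members: Psmb6 and Psmb5 because the start regions of these proteolytic subunits hold the core of the antioxidant response element, the sequence bound by Nfe2l1 and Nfe2l2, and Psmc2 and Psmd8 because these regulatory genes moved in opposite directions. Capitals mark TGACNNNGC in Psmb6 and Psmb5, CGGAAG (an ETS-type site, read as CTTCCG on this strand) in Psmc2 and Psmd8, and CCAAT in Psmc2. The windows lie at chr11:70525107-70525356 on the plus strand for Psmb6, at chr14:54617996-54618245 on the minus strand for Psmb5, at chr5:21785025-21785274 on the plus strand for Psmc2 and at chr7:29180674-29180923 on the minus strand for Psmd8.
Psmb6: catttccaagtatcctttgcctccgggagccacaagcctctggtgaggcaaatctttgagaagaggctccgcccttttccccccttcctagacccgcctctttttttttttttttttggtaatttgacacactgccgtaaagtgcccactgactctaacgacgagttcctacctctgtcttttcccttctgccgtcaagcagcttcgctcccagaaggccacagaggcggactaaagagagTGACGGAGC
Psmb5: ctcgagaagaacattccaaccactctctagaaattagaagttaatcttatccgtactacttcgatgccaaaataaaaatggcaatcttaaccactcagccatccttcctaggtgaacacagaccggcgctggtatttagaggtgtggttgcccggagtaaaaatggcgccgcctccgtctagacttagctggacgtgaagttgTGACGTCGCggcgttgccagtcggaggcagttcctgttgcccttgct
Psmc2: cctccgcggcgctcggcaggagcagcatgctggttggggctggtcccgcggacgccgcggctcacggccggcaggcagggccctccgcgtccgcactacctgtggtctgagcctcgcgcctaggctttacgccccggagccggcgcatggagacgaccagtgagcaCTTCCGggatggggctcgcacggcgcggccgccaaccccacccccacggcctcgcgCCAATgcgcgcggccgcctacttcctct
Psmd8: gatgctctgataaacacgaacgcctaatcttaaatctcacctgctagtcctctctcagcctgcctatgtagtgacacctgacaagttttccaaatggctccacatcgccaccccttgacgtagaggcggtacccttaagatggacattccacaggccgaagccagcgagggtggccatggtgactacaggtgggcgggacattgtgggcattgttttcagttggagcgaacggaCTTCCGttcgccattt
The element starts 9 bases before the gene start in Psmb6 and 47 bases before it in Psmb5. Psmb6 fell and Psmb5 was not called. Psmc2 rose and Psmd8 fell, and both hold CGGAAG on the reverse strand.

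Start regions were found for 29 of the 36 members. Psma8, Psmb1, Psmb2, Psmb7, Psmc3, Psmd3 and Psmd7 have no entry. Counting both strands over 300 bases (250 before and 50 after the start), CGGAAG was in 61.3% of the 31 member windows and in 16.9% of all 32851 windows. TGACNNNGC was in 16.1% of member windows (Psmb5, Psmb6, Psmc6, Psmd12 and Psmd9) and in 12.4% of all, and CCAAT in 38.7% and 37.4%. The start used for Psmd9 lies 58777 bases from the start of the gene as counted, and those for Psmd5 and Psmb11 lie 4006 and 3877 bases away. These windows may therefore not be the start regions of the RNA measured. No 2 of these matches overlapped in a member window. A match describes the letters of the window and says nothing of binding. Of the called members with a window, Psmb6 holds TGACNNNGC, Psmc2 holds CCAAT and CGGAAG, and Psmd8 holds CGGAAG.

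Levels per length were compared between subunits on the deposited FPKM scale (fragments scaled by gene length and library total) and as CPM per kilobase of the principal annotated transcript. Of the 36 members, 31 had a mean above 10 FPKM over the 6 libraries. Psmb1 was highest at 167 ± 3.57 FPKM in saline and 157 ± 5.00 in carnosine (SD, n = 3 each), and Psmc5 was next at 81.5 ± 3.05 and 89.2 ± 2.67. Psma8, at 3.72 ± 0.353 and 4.21 ± 0.423 FPKM, and Psmb11, at 0 to 0.0329 FPKM, were lowest. The 14 standard core subunits spanned 10.2 to 167 FPKM in saline, although each particle holds them in equal number. On the second scale the same 14 spanned 22.8 to 191 CPM per kilobase, with Psma3 lowest on both scales, Psmb1 highest in FPKM and Psma7 highest per kilobase.

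The order of levels depended on the gene length used. The length implied by the deposited FPKM was 0.589 of the principal transcript for Psmb1 and 6.36 times it for Psmd11. Psmb1 moved from rank 1 to rank 15, and Psma7 from rank 13 to rank 1. Spearman's rho between the orders was 0.75 over the 36 members, which share the same counts on both scales. The 6 ATPases spanned 3.80-fold in FPKM and 1.8-fold per kilobase in saline. The 11 standard non-ATPase subunits spanned 8.23-fold and 2.93-fold. The 3 chaperones were low on both scales, at 5.10 to 16.3 FPKM and 13.97 to 19.7 CPM per kilobase.

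**Figure D4:**
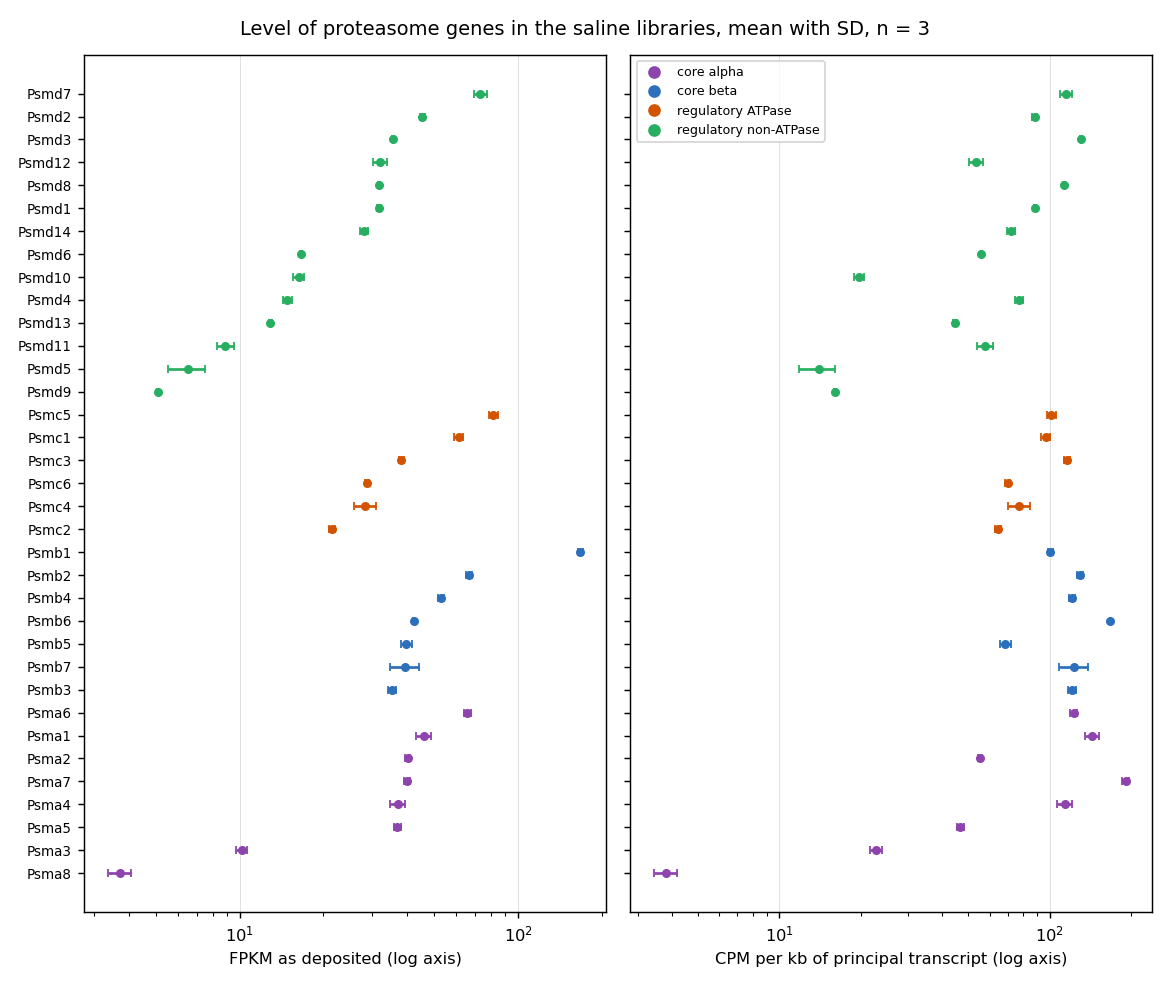
Mean level of each proteasome subunit except Psmb11 in the 3 saline libraries (error bars, SD), in FPKM on the left and in CPM per kilobase of the principal transcript on the right, both on log axes and colored by place in the particle. Psmb1 is highest in FPKM and Psma7 highest per kilobase.

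The summed core level was 1761 ± 13.4 CPM in saline and 1720.0 ± 14.4 CPM in carnosine, 2.38% lower in carnosine on the TMM scale but 1.15% higher in FPKM, so its direction depended on the scaling. The summed regulatory level was 2738 ± 9.05 and 2769 ± 31.9 CPM, 1.17% higher on the TMM scale and 6.08% higher in FPKM. FPKM divide by each library's total count, whereas the TMM factors were 0.979 to 0.983 in saline and 1.02 in carnosine. The ratio of regulatory to core CPM does not depend on library scaling. It was 1.56, 1.56 and 1.55 in saline and 1.58, 1.63 and 1.63 in carnosine, higher in each carnosine library, at 1.55 ± 0.00678 against 1.61 ± 0.0294.

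The interferon-inducible subunits Psmb8, Psmb9 and Psmb10 take the places of Psmb5, Psmb6 and Psmb7 in immunoproteasomes. Psmb8 fell from 232 ± 3.85 to 214 ± 7.55 CPM (log2 fold change -0.11 ± 0.03, adjusted p = 0.0277) and Psmb10 from 66.3 ± 4.74 to 56.7 ± 1.42 CPM (-0.23 ± 0.06, adjusted p = 0.0221). Psmb9 was at 67.3 ± 3.23 and 70.3 ± 3.52 CPM (adjusted p = 0.430). The call at Psmb8 was lost without saline replicate 1 or 3 or carnosine replicate 1 or 3 (adjusted p = 0.0779, 0.0735, 0.0776 and 0.0685), and that at Psmb10 without saline replicate 1 or carnosine replicate 1 or 3 (0.0507, 0.0720 and 0.0519). The ratio of Psmb8 to Psmb5 in FPKM was 1.46, 1.42 and 1.59 in saline and 1.28, 1.34 and 1.25 in carnosine, lower in every carnosine library. The ratio of Psmb9 to Psmb6 was 0.251, 0.258 and 0.234 in saline and 0.294, 0.275 and 0.318 in carnosine, higher in every carnosine library. The ratio of Psmb10 to Psmb7 was 0.417, 0.456 and 0.361 in saline and 0.336, 0.349 and 0.368 in carnosine, with overlap. The 3 pairs thus did not move one way. Exact two-sided permutation tests gave p = 0.10, 0.10 and 0.20 (0.15, 0.15 and 0.20 after Benjamini-Hochberg adjustment over the 3 ratios), and 0.10 is the smallest p that 3 against 3 libraries allow.

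Of the 5 genes of proteasome activators and the inhibitor, none passed. Psme1 and Psme2, the interferon-inducible cap, had log2 fold changes of -0.22 ± 0.07 and -0.21 ± 0.07 (adjusted p = 0.0504 and 0.0511), and Psme3, the nuclear activator, 0.07 ± 0.02 (adjusted p = 0.0653). Without adjustment 4 of the 5 had a p under 0.05, and limma-voom called Psme1 and Psme2 lower. Both fits on FPKM called Psme3 and Psme4 higher (smallest adjusted p 0.00973 and 0.0242), and so did the correction for GC content and length for Psme4. Psme1 also passed without any one of carnosine replicates 1, 2 and 3 (adjusted p = 0.0471, 0.0392 and 0.0493) and Psme2 without carnosine replicate 2 (0.0212). Of the 5 core assembly chaperones, 2 rose and 1 fell (median 0.11). Psmg3 rose from 14.3 ± 0.506 to 20.9 ± 0.992 CPM (log2 fold change 0.55 ± 0.07, adjusted p = 0.000846). Psmg2 rose from 26.96 ± 0.883 to 34.2 ± 0.182 CPM (0.34 ± 0.05, adjusted p = 0.00205). Pomp, which completes the core, fell from 88.2 ± 2.10 to 74.9 ± 4.88 CPM (-0.24 ± 0.05, adjusted p = 0.0122).

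Of 10 other subunits and partners of the particle, 3 rose and 3 fell (median -0.04). The deubiquitinases Usp14 and Uchl5, which bind the cap, rose: Usp14 from 103 ± 0.221 to 132 ± 3.61 CPM (log2 fold change 0.36 ± 0.03, adjusted p = 0.000152) and Uchl5 from 100.8 ± 3.29 to 112 ± 5.41 CPM (adjusted p = 0.0406), as did the scaffold Ecpas. The call at Uchl5 was lost in 9 of 16 alternatives, with adjusted p-values of up to 0.127, among them those without any one library other than carnosine replicate 3. The zinc finger proteins Zfand2a and Zfand5, which associate with proteasomes, fell from 37.99 ± 1.27 to 25.2 ± 1.91 CPM (-0.59 ± 0.07, adjusted p = 0.000605) and from 170.0 ± 8.40 to 137 ± 5.404 CPM (-0.31 ± 0.05, adjusted p = 0.00181). The ubiquitin receptor Adrm1, a subunit whose symbol lies outside the Psm series, fell by 0.19 on the log2 scale, a call lost in 8 of 16 alternatives with adjusted p-values of up to 0.314 (among them without saline replicate 1 or 3 or carnosine replicate 2 or 3), and Sem1, the other such subunit, measured 89.9 ± 3.26 and 90.0 ± 6.56 CPM. Of 11 shuttle factors and partners of the unfoldase Vcp, Faf2 rose from 62.9 ± 2.34 to 73.1 ± 3.38 CPM, Ubqln2 fell from 73.1 ± 1.598 to 65.2 ± 1.91 CPM and 9 were not called, Ubqln4 among them (log2 fold change 0.11 ± 0.04, adjusted p = 0.0612). Ubqln2 was not called without saline replicate 2 or carnosine replicate 3 (0.0611 and 0.0589), nor with DESeq2's Wald test or in either fit on FPKM (adjusted p up to 0.0988), and Ubqln4 was called without carnosine replicate 1 (0.0309). The median of the 11 was 0.0006.

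Among genes for ubiquitin and its activating enzymes, Ubb, which encodes ubiquitin, fell from 905 ± 14.7 to 748 ± 5.87 CPM (log2 fold change -0.27 ± 0.02, adjusted p = 7.71e-05). All 3 carnosine libraries lay below all 3 saline libraries. The activating enzyme gene Uba6 rose from 32.0 ± 1.24 to 39.4 ± 1.48 CPM (0.30 ± 0.06, adjusted p = 0.00525), with no overlap between the groups.

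Of 10 genes for transcription factors of proteasome genes and their processing, 4 fell and 2 rose (median -0.11). The small Maf proteins pair with Nfe2l1 and Nfe2l2 on DNA, and Bach1 represses the same elements. Maff fell from 46.8 ± 0.695 to 11.1 ± 0.654 CPM (log2 fold change -2.08 ± 0.06), Mafk from 139 ± 4.12 to 71.9 ± 2.51 CPM (-0.95 ± 0.04) and Bach1 from 91.3 ± 0.705 to 52.1 ± 2.56 CPM (-0.81 ± 0.05). Nfe2l1, the main activator of proteasome genes when proteolysis is impaired, was called lower (-1.38 ± 0.42, adjusted p = 0.0362), but its libraries overlapped. It was at 130.1, 37.9 and 133 CPM in saline and 38.2, 38.6 and 38.4 CPM in carnosine. Saline replicate 2 lay at the carnosine level while the other 2 saline libraries were far above it. How reads were assigned to this gene is not known here, so a difference in its RNA and one in the assignment of reads cannot be told apart. The adjusted p was 5.16e-06 without saline replicate 2, between 0.0904 and 0.106 without any other single library, and the call was lost in 9 of 16 alternatives. Nfe2l2, which responds to oxidants, was not called (118 ± 3.52 and 122 ± 0.936 CPM). Keap1, which marks Nfe2l2 for degradation, and Ddi2, the protease that cleaves Nfe2l1, rose by 0.22 and 0.11 on the log2 scale, Ddi2 with a call lost in 7 of 16 alternatives (adjusted p up to 0.172), among them without saline replicate 2 or 3 or carnosine replicate 2 or 3.

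Over these 7 lists, 9 of 50 tested genes rose and 14 fell (46.0% called, against 39.4% of all genes), with a median log2 fold change of -0.03. Their median size was 0.11, against 0.07 for the subunits. By list it ran from 0.04 for the shuttle factors and Vcp partners to 0.24 for the core assembly chaperones, so small sizes were not particular to the subunits. The TRiC/CCT chaperonin, another abundant complex of fixed composition, had 1 of 8 subunits higher and 1 lower with a median of -0.03. Its median size was 0.07, like that of the proteasome subunits. Cct5 fell from 579 ± 6.58 to 530.5 ± 9.39 CPM (log2 fold change -0.13 ± 0.02, adjusted p = 0.00424), a call lost in both fits on FPKM (adjusted p up to 0.0546). Cct6a rose by 0.08 ± 0.02 (adjusted p = 0.0239), a direction that turned to -0.05 (adjusted p = 0.192) with a correction for GC content and length. Its call was also lost without any one library other than saline replicate 2 (adjusted p between 0.0515 and 0.0761). Cct8 had a log2 fold change of 0.07 ± 0.04 (adjusted p = 0.145).

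**Figure D5:**
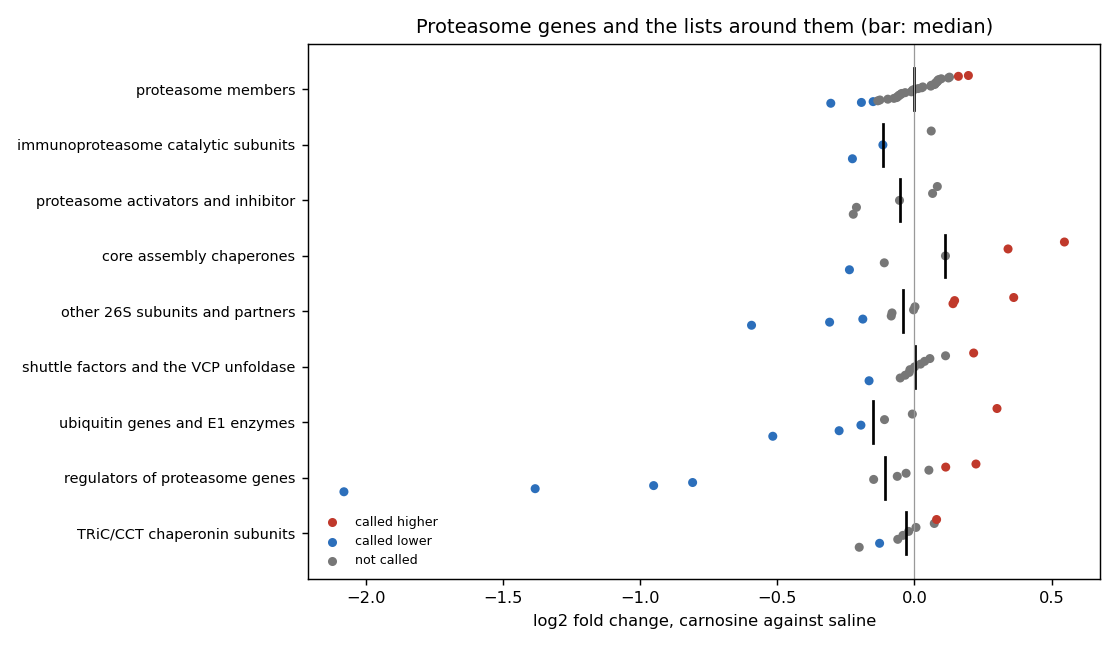
Log2 fold changes of carnosine over saline for the tested proteasome subunits (top row) and the genes of the 8 lists around them, 1 point per gene, with a bar at each median and colors for genes called higher, called lower or not called. The subunits lie within -0.30 to 0.20, and the regulators extend to -2.08 for Maff.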

How the data were processed

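Per the labels' protocols, stranded paired-end libraries were made from poly-A RNA of sorted cells and run on an Illumina NovaSeq. Samples were grouped by their titles. Per the file headers, the deposited table lists raw counts and FPKM of 53465 genes in each library. CASAVA 1.8, HISAT2, StringTie, edgeR and GRCm38 are named in the submitters' processing notes. What each was used for, how shared reads were treated and whether strand was used were not given in the sources used here. The FPKM the authors deposited equal count over library total and a per-gene divisor that was the same in all 6 libraries (within 0.077% over 10713 genes). The implied lengths given above are this divisor. That it is a gene length was not checked. Exons of Psma4, Psma5, Psmb5, Psmb7, Psmc3, Psmd1, Psmd3, Psmd9 and Psmd13 overlap those of another gene.

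The main test of the counts was that of edgeR 4.0.16 (R 4.3.3, filterByExpr, TMM, quasi-likelihood F-test, Benjamini-Hochberg adjustment over 15533 genes, threshold 0.05), on all 6 libraries with no covariate. The procedure was also run on simulated counts. The changes simulated were larger than that of any tested member, so this run does not show how changes of the members' size are detected. The filter kept 99.8% of counts, and the biological coefficient of variation was 0.0999. "Called" means an adjusted p under 0.05. CPM are on the TMM scale. Totals of 12602067 to 16866534 counts per library set the counting error. Alternatives used DESeq2 1.42.0 (size factors, Wald test), limma 3.58.1 (voom, and trend on log2 of FPKM + 1 or + 0.1), upper quartile scaling, 2 other filters, a replicate block, and each library left out. A correction for GC content and length, and the principal-transcript lengths, were added after seeing the data. Start regions came from RefSeq. Named in full are called members (up to 12), the 2 highest and 2 lowest detected by FPKM, the 2 largest uncalled differences, and up to 3 genes per pathway list by p. Other genes named were chosen after their values were seen. Paaf1 was not found. Some genes of the ubiquitin list are not reported here. Members, lists and rules were chosen with earlier results of these data known.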

Additional observations from a re-analysis of the deposited data

How the results depend on the processing

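The calls at Psmd8, Psmb6 and Psmc2 held in all 16 alternatives, and those at Psmb1 and Psmd7 in 13 of 16. Of the 30 uncalled members, 20 were called in none. FPKM divide by library totals and shift the median of all genes by 0.051 (pseudocount 1) or 0.059 (0.1). With FPKM, 10 members were called (28.6%, against 41.5% of all genes with pseudocount 1). In each of both fits, 2 were higher and 1 lower in the core, and 6 higher and 1 lower (Psmd8) in the regulatory particle. Among all genes these fits called 61.1% of the differences higher, against 49.7% with TMM. The core median was then 0.046 with each pseudocount and the regulatory median 0.074 and 0.077, while the summed levels had log2 ratios of 0.017 (core) and 0.085 (regulatory), against -0.035 and 0.017 in CPM. The pathway lists then had 14 genes higher and 8 lower. DESeq2's Wald test called 1 core gene lower. With no filter 1 regulatory gene was called higher. With the correction for GC content and length the core median was -0.052, Psmd3 was called (0.08, adjusted p = 0.0354) and Cct6a reversed to -0.048. Leaving out 1 library at a time gave 1 to 3 regulatory genes higher, 1 to 2 lower, 2 to 3 core genes lower, and core medians from -0.038 to 0.0084. Psmb8 lost its call in 9 and Psmb10 in 7 of 16 alternatives. The cause of these shifts was not tested.

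Whether the replicate numbers pair the libraries was not settled. Deviations from group means correlated at -0.011, 0.028 and 0.029 for replicates 1, 2 and 3 of equal number. The values for replicates 2 and 3 were the highest of all pairs, while saline replicate 1 correlated best with carnosine replicate 2 (0.021). Correlations this small cannot tell whether equal numbers share a mouse, litter or day. With the numbers as a replicate block, 2552 genes were called higher and 2679 lower, against 3038 and 3077, and the same 5 members were called, while Psmb8, Psmb10, Uchl5, Ddi2, Nfe2l1 and Cct6a lost their calls and Psme1 and Cct4 gained one. With 3 libraries per group and 81 to 106 counts per library for Psma8, small differences there were not detectable at this depth.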
